A study of Sus scrofa with 4 samples.

Results

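Pig miRNAs with late registry numbers were taken as every annotated row whose miR number is 2000 or more, on either arm of the hairpin. Of 321 annotated miRNAs in piglet hippocampus, 39 met this rule, and they come from 34 precursor hairpins. The rule used names and no measured value. Small RNA was sequenced from the ventral and the dorsal hippocampus of purebred Rongchang piglets, a Chinese breed, whose genotype label reads "wide type". The 8 newborn littermates (4 females and 4 males) were split into a control group of 4, labelled as injected with none, and an oxidative stress group of 4. The latter received 200 mg of iron dextran, an injectable complex of iron and sugar, intramuscularly on postnatal days 3 and 4. The tissue of a group was mixed and RNA extracted from the mixture, so there are 4 libraries, a control and an iron library from ventral and the same from dorsal tissue, each 1 pool. The spread between piglets was not measured, and the protocol does not state how many piglets entered each pool.

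A miRNA is cut from one or both arms of an RNA hairpin, and the arms are called 5p and 3p. The mature strand pairs with messenger RNAs mainly through its seed, bases 2 to 8 from the 5′ end, and lowers their stability or translation. Registry numbers follow the order in which sequences were reported, so late numbers mostly belong to miRNAs first seen by deep sequencing, many of them in few related species.

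The mature sequences below are those of the late-numbered miRNAs that reached 10 CPM (reads per 1000000 annotated miRNA reads, after scaling) in at least 1 library, in order of abundance. The capitals mark the seed. They are shown because the levels, arm shares and second counting described below refer to these molecules. miR-4334-3p, the second most abundant, is named only.
miR-3613: uGUUGUACuuuuuuuuuugu
miR-7134-5p: aUGUCCGCggguucccuaucc
miR-7857-3p: aUUGUUCUccaaccuggcucuu
miR-7134-3p: aUGCGGAAccugcggauacgg
miR-2320-3p: cGAUGAUGgucccuguguuug
miR-2366: uGGGUCACagaagagggucugg
miR-2411: uGGAGUGAcugucagaugcagc
miR-2320-5p: uGGCACAGgguccagcugucgg
miR-9851-3p: uGGCACCAgcacuggcgguggc
miR-7142-3p: uUUGUUGGcuccucugaaguga
miR-2483: aAACAUCUgguugguugagaga
miR-9843-3p: uCUGUGAAcuagaaaccucugg
miR-9858-5p: uUCCUGAGucggacugggcu

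No pair among them shares a seed. Over the 35 of 39 members with a pig-marked sequence row (89.7%, against 246 of 282, or 87.2%, of the lower-numbered miRNAs), all 35 seeds differed. Only miR-7143-3p had its seed in a row of another number, miR-191-3p of mouse and a lizard. That is 2.86% of members, against 24.8% of the lower-numbered miRNAs. The sequence row listed pig as its sole species for 33 members (94.3%) and for 42 lower-numbered miRNAs (17.1%). A row is 1 exact sequence, so a longer or shorter form in another species stands in a row of its own. Such forms were listed for miR-3613, miR-2411 and miR-2320-5p. Rows of other species with 1 mismatch were listed for miR-2320-3p and miR-7143-3p. These shares thus do not count miRNAs found only in pig. A family name was given for 11 members (31.4%), against 245 (99.6%). miR-2366 shared its row with cattle, and miR-2483 with cattle and goat.

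The members were of ordinary miRNA length, with a median of 22 bases in both sets and a range of 20 to 24. Their median GC content was 59.1%, against 47.6% among the lower-numbered miRNAs. miR-3613 held the least GC, with a run of 10 uridines. miR-4332 held the most, 95%, and is shown here because its composition is so far from the rest.
miR-4332: cACGGCCGccgccgggcgcc
The first base was U in 17 members (48.6%) and in 113 lower-numbered miRNAs (45.9%), A in 12, C in 5 and G in 1. These comparisons of names, composition and species are descriptions with no test.

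The gene table of a later pig assembly (RefSeq, Sscrofa 11.1) was used for names and neighbours, without strand. It held 29 of the 34 precursors and placed 27. Of these, 20 lay within another gene, 19 of them protein coding, and 7 did not. mir-7134 lay within TNRC6B, which encodes a scaffold of the miRNA silencing complex. mir-2366-1 lay within MAP1A, a microtubule protein gene of neurons, and mir-2483 within TENM1, a teneurin gene. The other precursor of miR-2366, mir-2366-2, was not held, and the reads of miR-2366 cannot be assigned to either. The precursor mir-3613 was not held. mir-2411 lay within UBAP2L, mir-4334 within DNPEP, mir-7142 within MARK2, mir-9843 within SGMS2 and mir-9851 within HSPA12A. mir-7857 lay outside genes, nearest to a serine tRNA gene, TRNAS-AGA, and mir-9858 was also outside. No placed precursor had another miRNA gene within 10 kb.

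The annotated miRNA reads numbered 13839556 in ventral control, 12299691 in ventral iron, 12100980 in dorsal control and 11396809 in dorsal iron. Late-numbered miRNAs held 20833 of the ventral control reads, a share of 0.151% (exact binomial 95% interval 0.148% to 0.153%). The share was 0.137% (0.135% to 0.139%) in ventral iron, 0.138% (0.136% to 0.141%) in dorsal control and 0.122% (0.120% to 0.124%) in dorsal iron. Ventral control was thus highest and dorsal iron lowest, and the middle pair overlapped. Intervals here and below cover counting error only, and amplified reads are not independent molecules. With 1 library for each combination, every difference compares libraries and not conditions.

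Nearly all listed members had reads in each library. Of 39, those with at least 1 read numbered 37 in ventral control, 38 in ventral iron, 36 in dorsal control and 37 in dorsal iron, and those with more than 3 reads 32, 30, 31 and 29 in this order. No member was at 0 in every library, and 34 had reads in all 4. All 321 annotated rows had reads in at least 1 library. A miRNA without reads may thus have no row, and these counts describe listed rows only. The 5 with a library at 0 were miR-9785-5p, miR-7143-5p, miR-7138-3p, miR-4337 and miR-9820-5p, which had 1 to 8 reads in total (named after their values were seen). A library at 0 reads allows up to 3 reads, which is 0.207 to 0.282 CPM. Among the 282 lower-numbered miRNAs, 5, 3, 3 and 4 were at 0.

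Detected did not mean abundant. Only 14 of 39 members (35.9%) reached 10 CPM in at least 1 library, against 237 of 282 (84.0%) of the lower-numbered miRNAs. The median of the mean level over 4 libraries was 1.27 CPM for members and 189 CPM for the rest. By mean level the members ranked from 112 to 319 of 321. None was among the first 100, and 22 of the last 50 were members. These 4 libraries come from 1 litter, so the ranks describe this tissue at this age only.

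**Figure D1:**
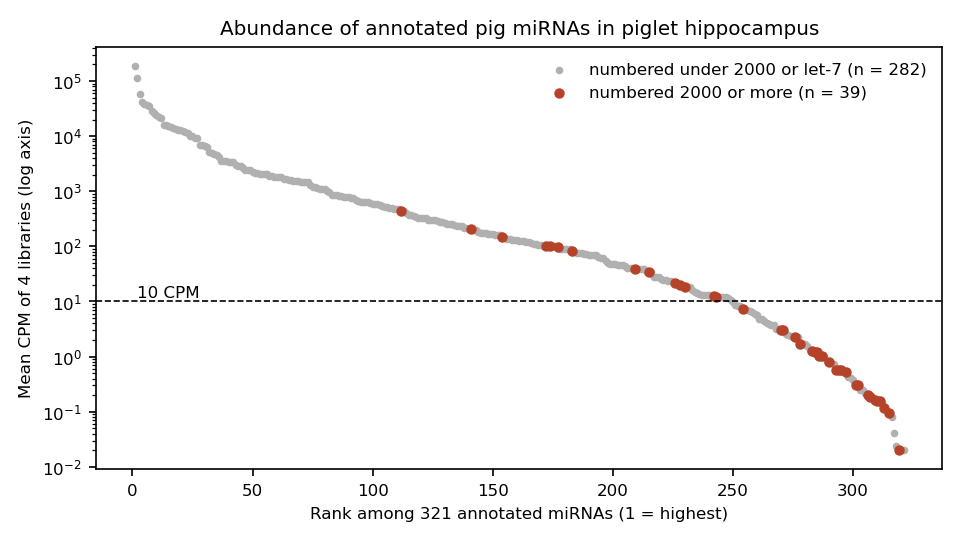
Mean CPM over 4 libraries (log axis) against rank for 321 annotated miRNAs, with the 39 late-numbered miRNAs in red and the 282 others in grey; the dashed line is the minimum of 10 CPM. The red points start at rank 112 and gather at the low end, where 25 lie under the line.

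Abundance differed along the number range. All 6 members numbered below 4000 reached 10 CPM, with a median of 61.5 CPM. Of the 5 numbered from 4000 to below 6000 only miR-4334-3p did, of the 18 from 6000 to below 8000 there were 4, and of the 10 from 8000 on there were 3. The median level of these later groups was 0.516, 1.16 and 1.12 CPM. The reads were also concentrated: the first 5 members held 73.0% to 75.3% of all member reads in each library. miR-3613 alone held 30.9%, 34.4%, 36.6% and 26.9%, in the order above.

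miR-3613 was the most abundant late-numbered miRNA, at rank 112. It stood at 445 CPM in ventral control, 472 in ventral iron, 496 in dorsal control and 352 in dorsal iron. Dorsal iron was apart from the other 3 libraries, 1.41-fold below dorsal control (95% counting interval 1.35 to 1.47) and 1.34-fold below ventral iron (1.29 to 1.40). The summed level of the neuron-enriched marker miRNAs (7 of 7 listed, 10 rows, none at 0) was also lowest there, at 59226.5 CPM against 66541 to 72881 in the other libraries. Dorsal iron was the lowest library for 5 of the 7 marker lists, which were also choroid plexus, muscle, oligodendrocyte and immune. Their part in the result was not tested, and fewer cells of a type and less miRNA per cell cannot be told apart in pooled tissue.

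miR-4334-3p followed at 240.1 CPM in ventral control, 203 in ventral iron, 169.6 in dorsal control and 216 in dorsal iron. It was highest in ventral control and lowest in dorsal control, with the 2 iron libraries between them. Its deposited reads were fractions, which in this set holds also for miR-4331 and no other member, against 109 of 282 lower-numbered miRNAs. Fractions arise where reads are divided among rows, so part of its reads may be shared with other rows.

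Both arms of mir-7134 were among the first 5 members. The 5p arm stood at 156 CPM in ventral control, 147 in ventral iron, 126 in dorsal control and 161 in dorsal iron. For the 3p arm the values were 101, 113, 101 and 93.7 CPM in the same order. With this scaling the 5p arm was highest in dorsal iron, where the 3p arm was lowest. By total count the 5p arm was higher in ventral control than in dorsal iron. So it was in the second counting described below, at 134.6 against 123.4 CPM.

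miR-7857-3p varied most of the 14. It stood at 120.4 CPM in ventral control, 69.8 in ventral iron, 87.6 in dorsal control and 133.4 in dorsal iron. The order of the regions was thus opposite in the 2 treatments, with ventral above dorsal in control and dorsal above ventral in iron. Its highest library was 1.91 times its lowest.

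The arms of mir-2320 came next. The 3p arm stood at 109, 97.4, 107 and 82.0 CPM in the same order of libraries, so both iron libraries were below both controls. The 5p arm stood at 33.7, 33.9, 29.7 and 38.8 CPM, highest in dorsal iron. The 3p arm is the more abundant strand of this hairpin in all 4 libraries.

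miR-2366 was the steadiest member, at 78.9, 89.2, 85.2 and 81.1 CPM in the same order, a 1.13-fold range. miR-2411 stood at 34.2, 37.9, 42.5 and 42.7 CPM, with both dorsal libraries above both ventral ones. miR-9851-3p stood at 23.4, 20.1, 22.5 and 20.01 CPM, with the 2 controls above the 2 iron libraries. The intervals of miR-9851-3p held 1 in all 4 comparisons with this scaling. Scaled by total count, its iron to control ratio was 0.823 (0.696 to 0.973) in ventral and 0.814 (0.677 to 0.976) in dorsal, and in the conserved table the dorsal ratio was 0.677 (0.539 to 0.848), so those 3 intervals lay below 1.

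The last members over the minimum had 110 to 304 reads per library. miR-7142-3p stood at 21.0, 18.1, 19.3 and 20.5 CPM and miR-2483 at 18.7, 18.4, 16.5 and 20.2 CPM. miR-9843-3p stood at 13.0, 13.1, 13.2 and 10.3 CPM, with dorsal iron lowest. miR-9858-5p stood at 13.1, 10.22, 12.6 and 13.1 CPM, with ventral iron lowest. The last of these, with a highest level of 13.1 CPM, is just inside the minimum of 10 CPM, and miR-7137-5p, with a highest level of 8.59 CPM, is just outside it.

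Of the 25 members under 10 CPM, the 3 with the highest mean were miR-7137-5p, miR-7139-5p and miR-7137-3p. miR-7137-5p stood at 7.80, 7.79, 8.59 and 5.26 CPM, from 113, 96, 106 and 56 reads. miR-7139-5p stood at 2.76, 3.49, 3.48 and 2.54 CPM, and miR-7137-3p at 4.14, 3.16, 2.51 and 2.16 CPM. All 3 were lowest in dorsal iron. The other 22 had between 1 and 111 reads summed over the 4 libraries.

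**Figure D2:**
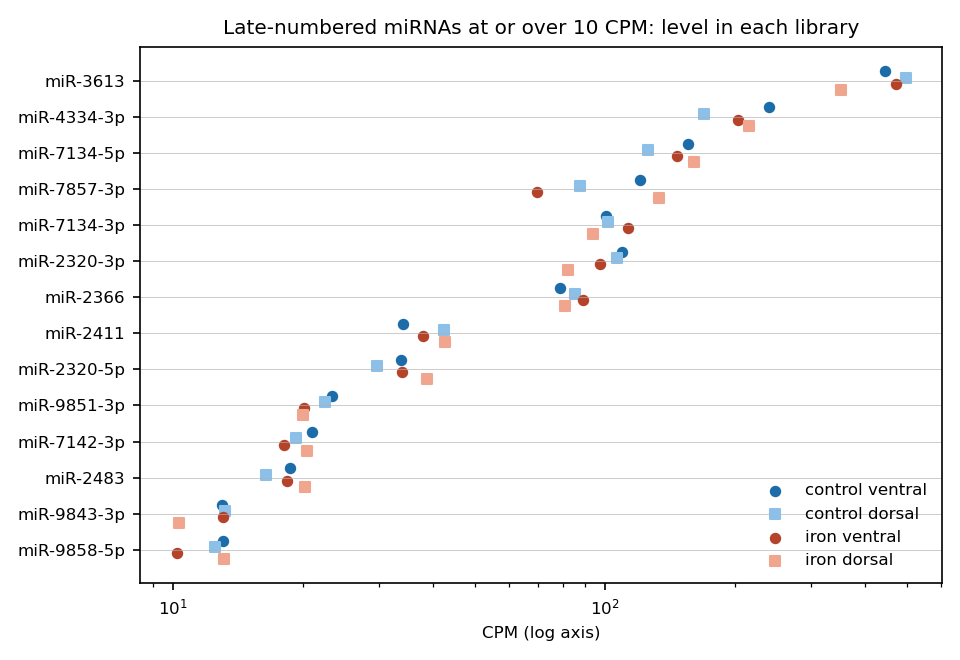
CPM (log axis) of the 14 late-numbered miRNAs that reached 10 CPM, 1 point per library; circles are ventral, squares dorsal, blue control and red iron. miR-7857-3p has the widest spread of the 14, from 69.8 to 133.4 CPM, and miR-2366 the narrowest, from 78.9 to 89.2 CPM.

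Over the 14 members, the highest library was a median of 1.28 times the lowest (1.13 to 1.91), and over all 251 miRNAs at 10 CPM or more a median of 1.33 times (1.02 to 11.2). With this scaling dorsal iron was an extreme library for most members, the highest for 6 and the lowest for 5. The same count over all 251 was not made. The count depends on the scaling, whose factor was 0.934 for dorsal iron and 1.002 to 1.05 for the other libraries. By total count, for example, the dorsal ratio of iron to control was 0.920 for miR-2411 and 0.959 for miR-9858-5p, so dorsal iron was not their highest library.

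In ventral hippocampus, the iron and control libraries were compared to see how these miRNAs differ after the injections. No member differed 2-fold, where 1.99% of all 251 did. miR-7857-3p was lower in the iron library by 1.72-fold (1.59 to 1.87), miR-9858-5p by 1.28-fold (1.02 to 1.62), miR-4334-3p by 1.18-fold (1.12 to 1.25) and miR-2320-3p by 1.12-fold (1.04 to 1.21). miR-2366, miR-7134-3p and miR-3613 were higher, with ratios of 1.13 (1.04 to 1.23), 1.12 (1.04 to 1.21) and 1.06 (1.02 to 1.10). These 7 of 14 had intervals that excluded 1, 3 above (background 43.0%) and 4 below (34.3%), against 77.3% of all 251 in either direction. The members had fewer reads, a median of 1603 per pair of libraries against 7921, and the part of depth in this count was not tested. Scaled by total count instead, 7 intervals excluded 1, all below it, but not for the same 7 members. The 3 higher ones then held 1: miR-2366 at 1.08 (0.995 to 1.18), miR-7134-3p at 1.07 (0.998 to 1.16) and miR-3613 at 1.02 (0.980 to 1.05). In their place miR-7134-5p, miR-9851-3p and miR-7142-3p had intervals below 1.

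The same question in the dorsal hippocampus also gave no 2-fold member (background 0.797%). miR-7857-3p was higher in the iron library, with a ratio of 1.52 (1.41 to 1.65). miR-2320-5p, miR-4334-3p, miR-7134-5p and miR-2483 were higher at 1.31 (1.13 to 1.51), 1.27 (1.1998 to 1.35), 1.27 (1.19 to 1.36) and 1.23 (1.01 to 1.49). miR-3613 was 1.41-fold lower and miR-2320-3p 1.30-fold lower (1.19 to 1.42). So the interval was above 1 for 5 (background 37.8%) and below 1 for 2 (39.8%), together 7 of 14 against 77.7% of all 251. Scaled by total count, 4 were above and 6 below, since that scaling lowers the median log2 ratio of all 251 from -0.02 to -0.15. By the authors' RPM, 4 of 12 were above and 5 below. miR-2483 had a ratio of 1.12 (0.924 to 1.37) by total count, so its interval then held 1.

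In the control animals, dorsal against ventral gave no 2-fold member (background 1.99%). miR-4334-3p was lower in dorsal by 1.42-fold (1.34 to 1.495), miR-7857-3p by 1.37-fold (1.27 to 1.48) and miR-7134-5p by 1.24-fold (1.16 to 1.32). miR-2411 and miR-3613 were higher, at 1.25 (1.10 to 1.41) and 1.12 (1.08 to 1.16). These 5 of 14 compare with 75.3% of all 251, and 2 were above 1 (background 39.0%) and 3 below (36.3%). The members again had fewer reads, a median of 1607.5 per pair of libraries against 7765, and the part of depth was not tested. Scaled by total count, 2 were above and 4 below, with miR-2320-5p added at 0.856 (0.745 to 0.982).

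Dorsal against ventral in the iron animals had no 2-fold member either (background 0.797%). miR-7857-3p came nearest, with a ratio of 1.91 (1.75 to 2.08). miR-9858-5p, miR-7134-5p and miR-4334-3p were higher in dorsal at 1.29 (1.004 to 1.65), 1.09 (1.02 to 1.17) and 1.06 (1.01 to 1.13). miR-3613 was 1.34-fold lower, miR-7134-3p 1.21-fold (1.11 to 1.31), miR-2320-3p 1.19-fold (1.09 to 1.30) and miR-2366 1.10-fold (1.01 to 1.205). That made 4 above 1 (background 40.2%) and 4 below (37.5%), 8 of 14 against 77.7% of all 251. Scaled by total count, 1 was above and 5 below. By the authors' RPM 1 of 12 was above and 4 below, and with repeated rows not merged 2 of 12 and 4. At a threshold of 1.5-fold, miR-7857-3p was the 1 member past it in iron against control in ventral (background 5.58%), in iron against control in dorsal (9.56%) and in dorsal against ventral under iron (8.37%), and no member passed in dorsal against ventral in control (6.77%). Scaled by total count, its dorsal ratio of iron to control was 1.39 (1.29 to 1.51), under that threshold. The 4 comparisons share libraries in pairs and are not independent of each other.

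**Figure D3:**
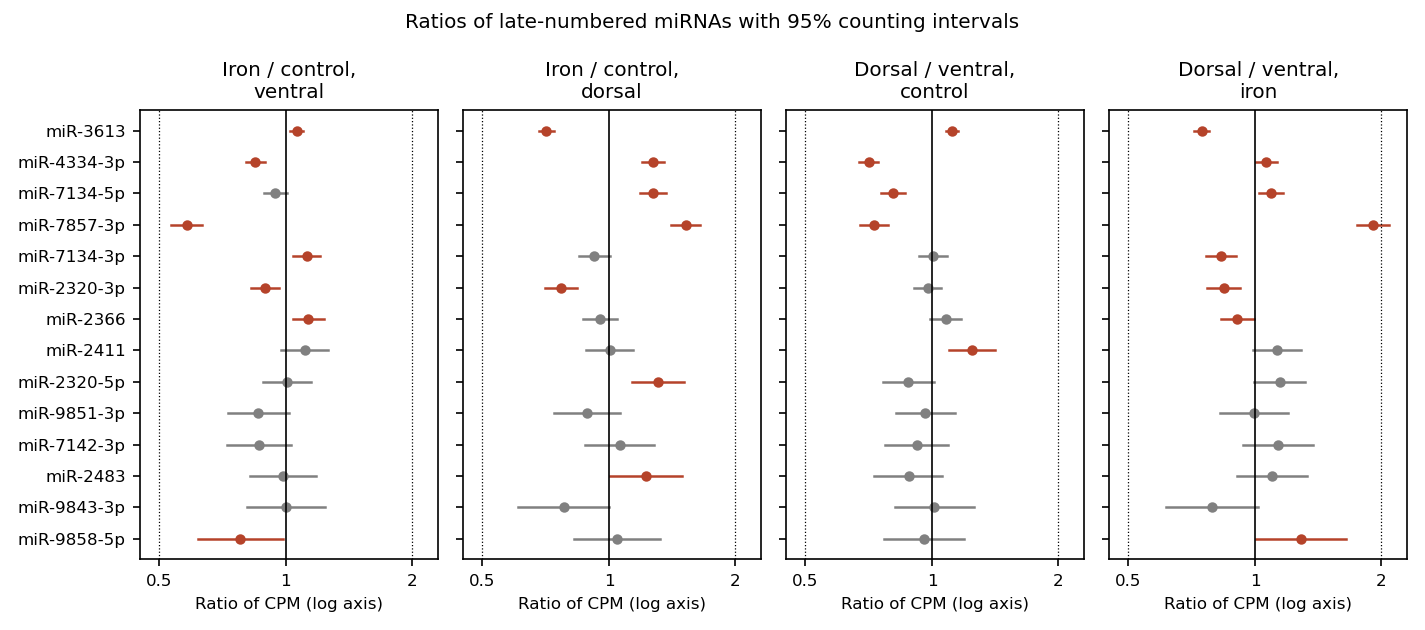
Ratio of CPM (log axis) with its 95% counting interval for the 14 late-numbered miRNAs in each comparison; red marks intervals that exclude 1, and the dotted lines are the 2-fold limits. miR-7857-3p lies farthest from 1 in both iron against control panels and in the panel of dorsal against ventral in iron, and no ratio passes a dotted line.

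Summed over all 39, the members stood at 1438 CPM in ventral control, 1371 in ventral iron, 1357 in dorsal control and 1309.5 in dorsal iron. In dorsal the ratio of iron to control was 0.965 (0.943 to 0.987). Without miR-3613, the sum was 1.10-fold lower in ventral iron than in ventral control (1.08 to 1.13), and in dorsal the ratio was 1.11 (1.08 to 1.14), so leaving out this miRNA turned the direction there. The dorsal ratio without miR-3613 was 1.02 (0.991 to 1.05) when scaled by total count.

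miR-7857-3p was the member whose iron difference depended most on region: its log2 ratio was -0.79 in ventral and 0.61 in dorsal. The 2 intervals lay on opposite sides of 1 for 3 of 14 members, miR-7857-3p, miR-4334-3p and miR-3613, and for 77 of 251 miRNAs. With log2 ratios at least 1 apart as well, this left miR-7857-3p, against 7 of 251. With this scaling the oligodendrocyte marker miRNAs (2 of 2 listed, 3 rows, none at 0) had the inverse order of libraries, at 10264 CPM in ventral control, 13906 in ventral iron, 11503 in dorsal control and 8812 in dorsal iron. By total count miR-7857-3p was higher in ventral control than in dorsal iron, so its order was then not the full inverse. The other marker lists did not have the inverse order. The part of the oligodendrocyte markers in the result was not tested. The difference between regions itself could not be tested with 1 library for each combination.

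Over both regions, edgeR's quasi-likelihood test with Benjamini-Hochberg adjustment called no member for iron, and 0.0% of all 251. Unadjusted, p was under 0.05 for 11 of 251 and for no member. miR-2320-3p had the smallest p of the members, 0.292 (adjusted 0.929, log2 difference -0.27). For region over both treatments, edgeR's test called 0 members and 0.0% of all 251. Unadjusted, p was under 0.05 in edgeR's test for 8 of 251 and for no member. miR-2411 had the smallest p of the members in edgeR's test, 0.357 (adjusted 0.996, log2 difference 0.25). The members' median log2 difference was -0.02 for iron and -0.03 for region, against 0.00 and 0.00 over all 251. DESeq2 and limma also called no member in either. This model has 1 residual degree of freedom and both regions of a treatment came from the same group of piglets, so its p-values describe these libraries.

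Among the members under 10 CPM, miR-9810-3p passed 2-fold with an interval excluding 1 when the minimum was removed, where 2.8% of all 321 did. It had 9 reads in ventral control and 1 in ventral iron, 7.66-fold lower (1.06 to 336). miR-7143-5p had 0 reads in ventral iron and 5 in dorsal iron, at least 1.93-fold higher in dorsal iron against a limit of 3 reads. That bound is under 2-fold. Without the minimum no member was called in dorsal against ventral under iron (background 0.935%), in iron against control in dorsal (1.87%) or in dorsal against ventral in control (3.43%). miR-7143-5p lies outside the naming rule and is given after its values were seen. Both rest on fewer than 10 reads per library. miR-7137-5p, just under the minimum, had a ratio of 0.612 (0.435 to 0.854) for iron against control in dorsal.

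The arm shares compare strands of the same hairpin within a library, so scaling does not touch them. Both arms had rows for 8 late-numbered hairpins. For mir-7134 the 5p share was 60.7% (exact binomial 95% interval 59.1% to 62.3%) in ventral control, 56.5% (54.8% to 58.2%) in ventral iron, 55.4% (53.6% to 57.3%) in dorsal control and 63.1% (61.3% to 65.0%) in dorsal iron. Dorsal control and ventral iron overlapped and were below the other pair. For mir-2320 the 5p share was 23.6% (21.8% to 25.5%), 25.8% (23.7% to 28.0%), 21.7% (19.8% to 23.8%) and 32.1% (29.6% to 34.7%) in the same order. Dorsal iron was above the other 3 libraries, whose 5p shares were 21.7% to 25.8%.

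These shifts were set beside those of all 44 hairpins with both arms over 10 CPM. Between iron and control in dorsal the 5p share moved by a median of -0.11 percentage points, with a range of -9.34 to 10.4. mir-2320 had the largest move, 10.4 points, and mir-7134 the third, 7.72 points. The 2 intervals did not overlap for 25 of the 44, 14 with a higher 5p share and 11 with a lower one. In ventral the moves were 2.24 points for mir-2320 and -4.23 for mir-7134, ranked 12 and 3 by size. Dorsal against ventral, mir-7134 moved by -5.30 points in control and 6.64 in iron, ranked 2 and 3. mir-2320 moved by -1.83 points in control and 6.30 in iron, ranked 11 and 5.

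The less abundant hairpins favoured different arms. Over the 4 libraries together, the 5p arm held 94.4% of reads for mir-7139 (162 reads), 82.9% for mir-7138 (35), 73.7% for mir-7136 (38) and 70.8% for mir-7137 (524). It held 34.9% for mir-7135 (43) and 5.93% for mir-7143 (118). In all, 5 of the 8 hairpins had more 5p and 3 more 3p annotated reads. For mir-7135 the interval of the 5p share was wide, 21.0% to 50.9%. In the second counting described below, the 5p share was 48.4% for mir-7134 and 19.0% for mir-7137, so both then had more 3p reads.

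**Figure D4:**
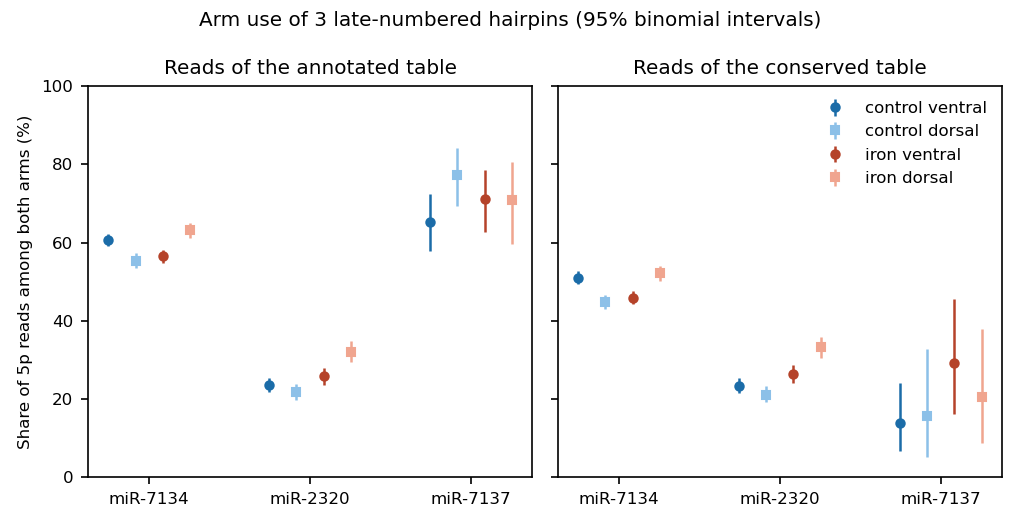
Share of 5p reads (%) among the reads of both arms for 3 late-numbered hairpins, 1 point per library with its exact binomial 95% interval, from the annotated table (left) and the conserved table (right). mir-2320 is highest in dorsal iron in both, and mir-7137 is mostly 5p on the left, 65.3% to 77.4%, and mostly 3p on the right, with a 5p share of 13.9% to 29.3%.

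The authors also counted miRNAs in a second table by conserved sequence, with 1 row per sequence, marked with the species that share it. Summing there the rows of the same number and arm gave a median of 68.9% of the annotated reads over 35 members, and fewer reads for 31 of them. For the 13 over the minimum the median was 78.5%. The exceptions were miR-7134-3p, with 129.3%, miR-2366, with 114%, miR-7135-3p, with 182.1% of 28 reads, and miR-7139-3p, with 111% of 9 reads (named after their values were seen).

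Most reads of miR-3613 stood under the name of other species. Its pig row held 2433 reads, 10.99% of the 22134 annotated ones. The human and cattle row, which contains the whole pig sequence and is 2 bases longer, brought the sum to 92.3%.
miR-3613, pig row: uGUUGUACuuuuuuuuuugu
miR-3613-5p, human and cattle row: uGUUGUACuuuuuuuuuuguuc
The long row held 88.5% (87.7% to 89.3%) of the reads of the pair in ventral control, 88.4% (87.5% to 89.2%) in ventral iron, 90.7% (90.0% to 91.5%) in dorsal control and 82.5% (81.2% to 83.8%) in dorsal iron. Its reads were 2823 in dorsal iron against 4750.5 to 5294.5 elsewhere, while the pig row stayed between 524.5 and 685.5. The lower level of miR-3613 in dorsal iron was carried in this table by the long row. The sources used here do not say how the authors divided reads between nested rows.

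miR-2320 and miR-2411 were split the same way. For miR-2320-5p the cattle row, 1 base longer, held 55.8% to 60.9% of the pair. For miR-2320-3p the cattle row starts 1 base earlier and so has another seed, and it held 4.43% to 8.07%.
miR-2320-3p, pig row: cGAUGAUGgucccuguguuug
miR-2320-3p, cattle and goat row: uCGAUGAUggucccuguguuuu
miR-2411 had 21.5% of its annotated reads in the pig row and 77.4% when the cattle and goat rows were added.

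The conserved table kept the pattern of miR-7857-3p. Its iron to control ratio there was 0.594 (0.541 to 0.651) in ventral and 1.43 (1.31 to 1.57) in dorsal. mir-2320 kept its arm shift, from a 5p share of 21.2% in dorsal control to 33.2% in dorsal iron, and mir-7134 moved from 44.7% to 52.2%. The level of the share differed for mir-7134, where the 5p arm held 59.0% of annotated reads and 48.4% of conserved ones.

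mir-7137 changed its main arm between tables. Of its 524 annotated reads, 371 were 5p, and of its 179 reads in the second count, 34 were 5p. The 5p share was thus 70.8% (66.7% to 74.7%) in the first and 19.0% (13.5% to 25.5%) in the second.
miR-7137-5p: cGGGGGAAcucccagaccagc
miR-7137-3p: aGCUGGUCugggaguucccggg
For 3p the second count held 94.8% of the annotated reads, and for 5p the reads were 9.16% of the annotated ones.

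**Figure D5:**
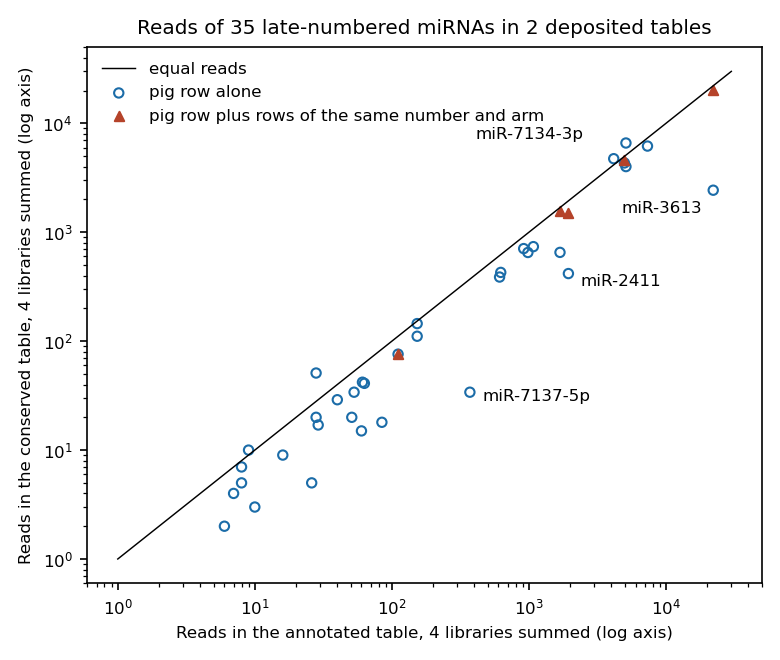
Reads of 35 late-numbered miRNAs summed over 4 libraries in the annotated table (x, log axis) and the conserved table (y, log axis); circles are the pig row alone, triangles the sum with rows of the same number and arm, and the line marks equal reads. miR-3613 lies far under the line with its pig row and near it with the sum, and miR-7137-5p stays far under, with 34 of 371 reads.

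The other marker lists are given as a description of the pools, and their sums do not measure the share of any cell type. In CPM, erythroid markers (3 of 3 listed) summed to 837 to 1075, choroid plexus (1 of 2) to 164 to 253, muscle (5 of 5) to 916 to 1195 and immune (2 of 3) to 696 to 883. Epithelial markers (4 of 6) stood at 457 in ventral control and 127 to 153.4 in the other libraries. This list had no row for miR-141 or miR-200, so its sum is that of miR-429, miR-183, miR-96 and miR-182.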

How the data were processed

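Small RNA of 4 pooled libraries was counted by the authors. Per the file headers, the deposited annotated table gives reads and RPM for each library. The authors' reads are estimated counts, per the file headers and values, since some are fractions. They were rounded here to whole numbers. The deposited conserved table gives sequences and reads. The submitters' processing notes name cutadapt 1.2.2, Sscrofa 10.2 and susScr 3. An aligner, a quantifier and a miRNA release are each not given in the sources here. Value columns not used number 8.

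Repeated annotated rows (same precursors, reads equal within 0.1%) were merged, which left 321. Libraries were scaled by TMM (edgeR 4.0.16). Ratios have exact conditional binomial (Clopper-Pearson) 95% intervals, with no p-value. A member was called at 2-fold or more with an interval excluding 1, among the 251 miRNAs at 10 CPM or more in at least 1 library. Over all 4 libraries, iron and region were terms of 1 additive edgeR quasi-likelihood fit, with p-values Benjamini-Hochberg adjusted over all 251, threshold 0.05. Alternatives used DESeq2 1.42.0, limma 3.58.1, other scalings, minima and thresholds, unmerged rows and the authors' RPM. The fit was also run on simulated data with changes of known size and an assumed spread between libraries. The spread between piglets was not measured here, so that run does not show what the fit would miss in these libraries.

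Named were all members at 10 CPM or more. Below that, those passing 2-fold without a minimum and the 3 with the highest mean were named. The members and lists were chosen with earlier results of these data known.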

Additional observations from a re-analysis of the deposited data

Results flagged for a closer look

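miR-7857-3p stood out because the iron libraries lay on opposite sides of their controls in the 2 regions. The log2 ratio of iron to control was -0.79 in ventral and 0.61 in dorsal, a difference of 1.39. Each group is 1 pooled library, so the difference between regions was not tested. The log2 ratio in ventral was -0.85 to -0.75 and in dorsal 0.48 to 0.62 over all scalings, minima, row treatments and tables tried.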

How the results depend on the processing

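Pairing by single piglet was not possible, because each group has 1 pooled library and the labels give no replicate number to pair by. For the same reason no replicate could be left out. The additive fit holds iron and region together, so it compares the regions within treatment and the treatments within region. Without the other term edgeR called 0 of 251 for iron and 0 for region. The count of members past the threshold was 0 in each comparison. At 1.5-fold it was 1 in iron against control in ventral, 1 in iron against control in dorsal and 1 in dorsal against ventral under iron, each time miR-7857-3p, where 5.58%, 9.56% and 8.37% of all 251 passed. The pass in iron against control in dorsal depended on the processing. There the ratio was 1.39 by total count and 1.43 in the conserved table, and the log2 ratio was 0.499 by the authors' RPM, all under 1.5-fold. Without a minimum the count of members was 1 in iron against control in ventral (miR-9810-3p), where 2.8% of all 321 passed. Over both regions or treatments no member was called under any alternative. Over all miRNAs measured, edgeR called 0 for iron, but 2 with DESeq2 size factors, 2 with total count scaling, 3 without a minimum and 2 with rows not merged, and DESeq2 called 1. For region edgeR called 0, but 3 with DESeq2 size factors, 3 with total count scaling, 4 without a minimum and 3 with rows not merged. The members' share of reads was 0.105% in ventral control, 0.0998% in ventral iron, 0.101% in dorsal control and 0.0909% in dorsal iron, both with rows not merged and by the authors' RPM, because repeated rows then enlarge the total. Log2 ratios of single members moved beyond their counting interval in 10 of 56 cases with total count scaling, 4 of 48 with the authors' RPM, 1 of 48 with rows not merged and 4 of 52 with the conserved table. Of those whose interval excluded 1, miR-4334-3p in dorsal against ventral under iron was 0.09 and became -0.01 with total count scaling, and miR-7134-5p in the same comparison was 0.13 and became -0.03 with the conserved table. Over both regions, the iron difference of 4 members near 0 changed sign with total count scaling, to -0.042 for miR-4334-3p, -0.068 for miR-7134-3p, -0.042 for miR-2366 and -0.017 for miR-2411. The region difference of miR-2320-5p became -0.066 with total count scaling, -0.041 with rows not merged and -0.0048 with DESeq2, and that of miR-7142-3p became -0.042 and -0.018 under the first pair of these. None of these was called in either form. The conserved table was added after seeing the data. Depth limits the 25 members under 10 CPM, where a few reads make a 2-fold difference.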
